A study of Mus musculus with 10 samples.

Results

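The 10 transcripts described here are ones by which resident tissue macrophages are recognised: Cd163, Vcam1, Hmox1, Slc40a1, Spic, C1qa, C1qb, C1qc, Apoe and Lyz2. They were chosen by name and found by mouse gene symbol in a count table of dendritic cell preparations. All 10 were among its 19178 genes and all 10 passed the filter on low counts, which left 18248 genes tested. Some of the 10 transcripts are not restricted to macrophages, as told below for Vcam1 and Lyz2. RNA of dendritic cells, which present antigen and start T cell responses, had been sequenced in 10 libraries from mice aged 8 to 10 weeks. Of these, 5 libraries were labelled Ptbp1 deficient and 5 WT. The product of Ptbp1 is an RNA-binding regulator of splicing, and the study's title places it in the control of T cells and of immunity against tumours by dendritic cells. No treatment is labelled for either group. The labels name no tissue of origin, sex, sort or purity, no Cre line or promoter, and not which part of Ptbp1 was altered. Whether the libraries come from different mice is not stated either, so every p-value below measures only the spread between these libraries.

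Resident macrophages of the spleen, liver, marrow and lymph nodes clear dying cells and opsonised particles, and those of the splenic red pulp take up aged red cells. The iron of the engulfed haemoglobin is freed from heme and returned to the plasma, and the transcription factor Spi-C is required for the red pulp cells that do this. Macrophages are also the main source of the complement protein C1q and an important source of apolipoprotein E. Preparations of dendritic cells from tissue can hold macrophages, since both kinds of cell share surface proteins and phagocytic behaviour.

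Spi-C belongs to the PU.1 family of ETS transcription factors, whose members bind a purine-rich core. The start regions of members were searched for that core, AGGAAGT, on both strands (its reverse is ACTTCCT). RefSeq windows of GRCm38.p6 (250 bases before to 50 after a transcript's start) matched 6 members by symbol, with 8 windows in all. The core was found in 4 of these 6 members, Spic, C1qb, C1qc and Lyz2, and among all genes with such a window in 10.68% of 27025. The windows of those 4 members are shown with the core in capitals, and that of Cd163 for comparison, 5′ to 3′ on the strand of the gene:
Spic, chr10:88682974-88683273, minus strand: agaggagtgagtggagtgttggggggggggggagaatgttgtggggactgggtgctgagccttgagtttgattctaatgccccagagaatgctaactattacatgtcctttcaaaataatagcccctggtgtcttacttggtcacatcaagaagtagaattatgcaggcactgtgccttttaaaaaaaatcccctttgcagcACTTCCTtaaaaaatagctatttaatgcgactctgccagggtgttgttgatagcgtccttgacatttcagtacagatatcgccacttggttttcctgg
C1qb, chr4:136886151-136886450, minus strand: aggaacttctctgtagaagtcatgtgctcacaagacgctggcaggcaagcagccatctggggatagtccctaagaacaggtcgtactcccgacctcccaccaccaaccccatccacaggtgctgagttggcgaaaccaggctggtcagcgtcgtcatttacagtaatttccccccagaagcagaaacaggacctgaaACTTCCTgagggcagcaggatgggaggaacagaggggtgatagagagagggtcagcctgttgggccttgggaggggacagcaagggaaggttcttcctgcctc
C1qc, chr4:136892865-136893164, minus strand: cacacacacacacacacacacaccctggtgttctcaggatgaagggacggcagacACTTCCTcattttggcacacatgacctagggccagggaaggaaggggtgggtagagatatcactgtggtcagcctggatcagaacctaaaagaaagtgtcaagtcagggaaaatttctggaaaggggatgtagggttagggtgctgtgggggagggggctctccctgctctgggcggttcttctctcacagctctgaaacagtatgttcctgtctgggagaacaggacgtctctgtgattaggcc
Lyz2, chr10:117282223-117282522, minus strand: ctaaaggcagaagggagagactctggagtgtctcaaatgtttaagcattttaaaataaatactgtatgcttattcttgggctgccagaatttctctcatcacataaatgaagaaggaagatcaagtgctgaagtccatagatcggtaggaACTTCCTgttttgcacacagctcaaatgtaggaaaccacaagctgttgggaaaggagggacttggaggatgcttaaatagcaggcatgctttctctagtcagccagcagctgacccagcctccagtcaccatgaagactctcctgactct
Cd163, chr6:124304401-124304700, plus strand: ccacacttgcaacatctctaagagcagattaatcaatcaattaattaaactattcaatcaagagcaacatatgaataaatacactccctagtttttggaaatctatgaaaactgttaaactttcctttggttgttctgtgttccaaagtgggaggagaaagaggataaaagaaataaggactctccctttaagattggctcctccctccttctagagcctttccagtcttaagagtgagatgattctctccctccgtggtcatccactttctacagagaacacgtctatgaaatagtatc
Each of the 4 matches reads ACTTCCT on the gene's strand, so AGGAAGT lies on the opposite strand. Its first base stands at -48 from the RefSeq transcript's start in Spic, -53 in C1qb, -195 in C1qc and -100 in Lyz2. The whole Spic window lies inside the GENCODE span of that gene given below, so its start is not the outermost one. The 7 letters were not in the Cd163 window or in any of the 3 Apoe windows. A match of letters is a description and does not show that a factor binds there. Whether the core bears on the levels below was not tested.

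Counts assigned to genes ran from 61759378 to 92697815 in the deficient libraries and from 50516163 to 66153758 in WT. Levels are given as CPM (gene counts scaled to a common library size after TMM normalization), and differences as log2 fold changes of deficient minus WT. Genes were tested with the quasi-likelihood method of edgeR, p-values were adjusted by Benjamini-Hochberg over the 18248 genes, and a gene was called at an adjusted p under 0.05. Ptbp1 itself stood at 73.2 to 75.7 CPM in the deficient libraries and 259 to 312 CPM in WT, so its level followed the labels in all 10. The preparations carried dendritic cell transcripts throughout, and all 24 of 24 dendritic cell markers were in the table. They summed to 44494 to 48396 CPM per deficient library and 37423 to 45790 CPM per WT library. The largest parts were Cd74, H2-Ab1, H2-Eb1 and H2-Aa, with means of 13828, 8999, 7422 and 7049 CPM in the deficient libraries. In WT their means were 13470, 8395, 6866 and 5814 CPM. The sum mostly follows these genes and does not measure the purity of the preparations.

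Most of the macrophage transcripts were lower in the deficient libraries. Of the 10, 8 were called lower, against 23.1% of all genes tested. None was called higher by edgeR, against 21.9% of all genes, and the number higher was also 0 at an unadjusted p under 0.05 and 0 with DESeq2. Their median log2 fold change was -1.71, and that of all genes tested was -0.03. In 7 of the 10, all but the C1q genes, every deficient library lay below every WT library, which held for 16.2% of all genes tested. In RNA from whole preparations, fewer cells of a type and less RNA per cell cannot be told apart.

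These transcripts varied widely within each genotype. The 10 transcripts together held 0.0370% and 0.0334% of gene counts in deficient libraries 1 and 2, and 0.0881%, 0.104% and 0.0869% in deficient libraries 3, 4 and 5. In WT they held 0.158%, 0.149% and 0.163% in libraries 2, 3 and 4, but 0.304% in library 1 and 0.475% in library 5. WT 5 was the highest library for 10 of 10 transcripts and WT 1 the second for 9, while deficient libraries 1 and 2 were the lowest pair for 10 of 10. Over all genes tested, WT 5 was the highest library for 18.0%. The single lowest library was deficient 1 or 2 for 2929 of 18248 genes and for 10 of 10 members, which is a looser measure than the lowest pair. Shares of all genes for the lowest pair and for WT 1 as second are not given. In the marker lists described below, WT 5 was highest for 100% of B cell, 85.7% of T cell and 83.3% of plasmacytoid markers. It was highest for 82.8% of monocyte and neutrophil and 81.25% of erythroid genes, but for 8.33% of dendritic cell and 12.5% of NK cell markers. Deficient 1 and 2 were also the shallowest of their group, with 61759378 and 64935948 gene counts against 80164889 to 92697815, and WT 1 had the largest share of reads outside genes, 22.2%. The part of depth and of these reads in the result was not tested. Results are therefore also given without deficient libraries 1 and 2, without WT libraries 1 and 5, and without all 4. These libraries were picked for their levels of these very transcripts, so fits without them describe the rest and are no independent test.

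**Figure D1:**
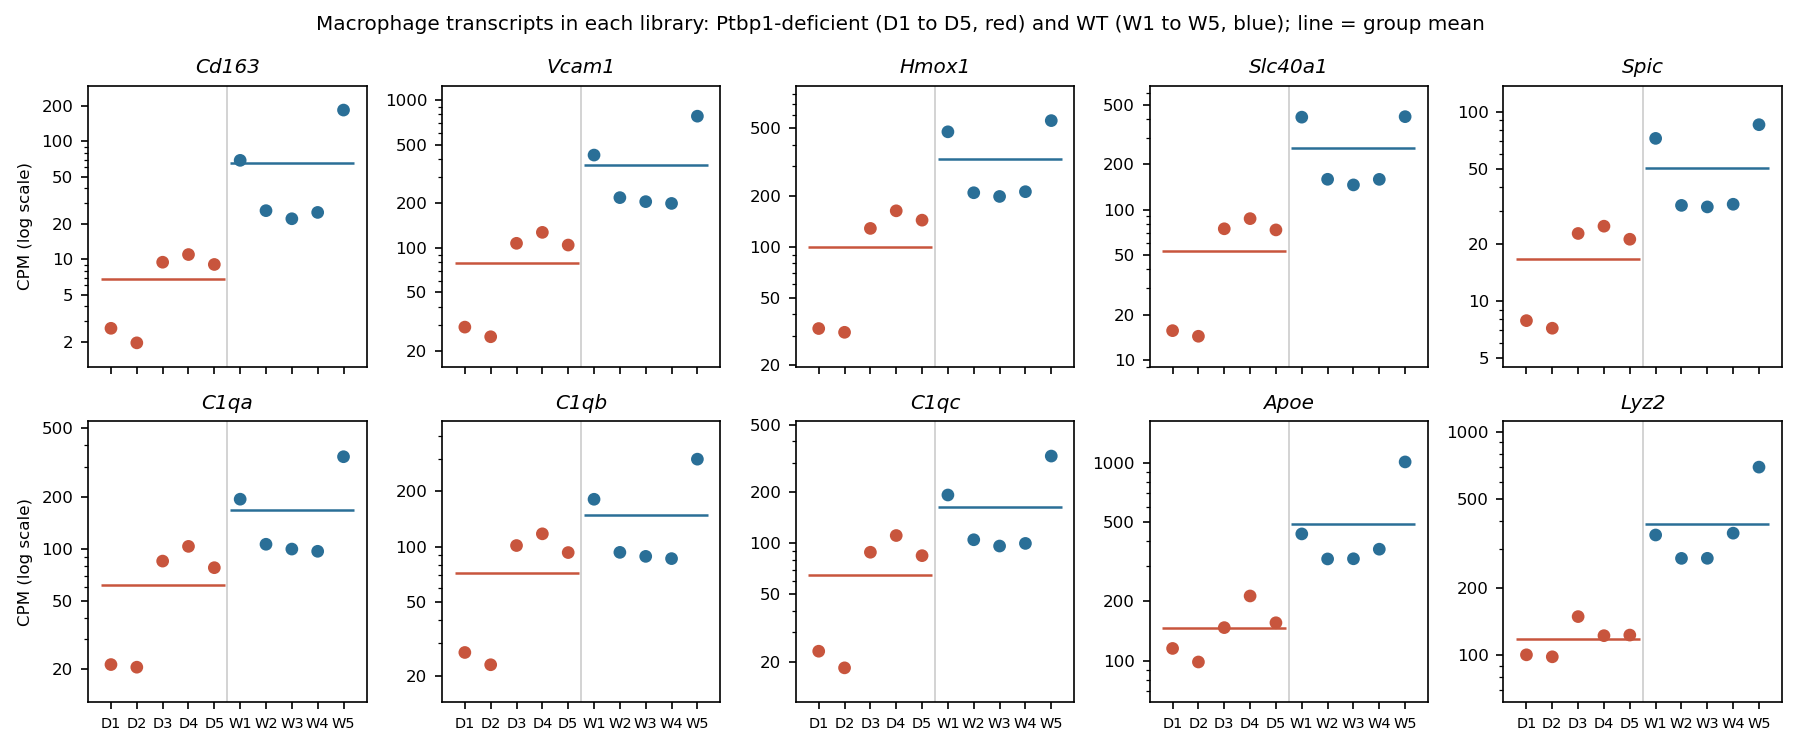
Level of each of the 10 macrophage transcripts (vertical axis, CPM, log scale, a different range in each panel) in the 5 Ptbp1-deficient libraries (D1 to D5, red points) and the 5 WT libraries (W1 to W5, blue points), with horizontal lines at group means. D1 and D2 lie lowest in every panel, and W5 lies highest; the groups overlap in the panels of C1qa, C1qb and C1qc only.

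The surface receptor and adhesion genes were both called lower, Cd163 by the most of all members. Cd163 encodes the macrophage scavenger receptor for complexes of haemoglobin and haptoglobin (ENSMUSG00000008845, chromosome 6, 124304656 to 124330527, plus strand of GRCm38). It stood at 2.60, 1.96, 9.44, 11.0 and 9.03 CPM in deficient libraries 1 to 5 and at 69.0, 25.8, 22.1, 25.0 and 184 CPM in WT libraries 1 to 5. The groups did not overlap, but WT 5 was far above the other WT libraries and deficient 1 and 2 far below the other deficient ones. The means were 6.80 ± 4.20 and 65.2 ± 69.3 CPM (SD, n = 5 each), with a log2 fold change of -3.25 (SE 0.70, adjusted p = 0.0027). It was -1.82 without WT 1 and 5 and -1.31 without all 4 libraries. The lowest library held 125 Cd163 counts.

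Vcam1 encodes the adhesion molecule that binds the integrin VLA-4 and is displayed by red pulp and marrow macrophages as well as by endothelium (ENSMUSG00000027962, chromosome 3, 116109949 to 116129688, minus strand). Its levels were 29.1, 25.1, 107, 127 and 105 CPM in deficient libraries 1 to 5 and 425, 219, 206, 200.02 and 778 CPM in WT libraries 1 to 5. The groups did not overlap, with deficient 4 closest to WT 4. Deficient libraries 3 to 5 reached 54.4% of the mean of WT 2 to 4, and deficient 1 and 2 reached 24.0% of deficient 3 to 5. The log2 fold change was -2.21 (SE 0.53, adjusted p = 0.0054), and -0.88 without all 4 libraries.

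The heme and iron genes fell as well, by amounts that depended on the same libraries. Hmox1 encodes heme oxygenase 1, which opens the heme ring and frees its iron (ENSMUSG00000005413, chromosome 8, 75093621 to 75100589, plus strand). It stood at 33.0, 31.3, 128, 163 and 144 CPM in deficient libraries 1 to 5 and at 477, 209, 198, 212 and 555 CPM in WT libraries 1 to 5. The 2 groups were separated narrowly, with deficient 4 closest to WT 3. Its log2 fold change was -1.72 (SE 0.50, adjusted p = 0.015). Without WT 1 and 5 it was -1.04 and no longer passed (adjusted p = 0.094). Over every alternative tried the adjusted p ran from 1.1e-04 to 0.094. The lowest came from the fit without all 4 libraries (-0.51), which removed libraries picked for their levels and so narrowed the spread.

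Slc40a1 encodes ferroportin, the exporter that returns iron to the plasma (ENSMUSG00000025993, chromosome 1, 45908068 to 45926523, minus strand). Its levels were 15.6, 14.3, 74.5, 87.1 and 73.2 CPM in deficient libraries 1 to 5 and 413, 159, 146, 159 and 416 CPM in WT libraries 1 to 5. The groups did not overlap, and WT 1 and WT 5 were nearly alike here, unlike in Cd163, where WT 5 was well above WT 1. The log2 fold change was -2.28 (SE 0.55, adjusted p = 0.0053), and -0.98 without all 4 libraries.

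Spic, the gene of the transcription factor Spi-C (ENSMUSG00000004359, chromosome 10, 88674772 to 88685015, minus strand), was the least abundant member after Cd163 per length of exon. It stood at 7.89, 7.20, 22.7, 24.9 and 21.2 CPM in deficient libraries 1 to 5 and at 72.2, 32.0, 31.4, 32.4 and 85.3 CPM in WT libraries 1 to 5. The groups did not overlap, and deficient libraries 3 to 5 held 71.8% of the mean of WT 2 to 4. Its log2 fold change was -1.59 (SE 0.42, adjusted p = 0.0086). It missed the threshold without WT 1 and 5 (log2 fold change -0.92, adjusted p = 0.053). Over alternatives the adjusted p ran from 6.5e-05 to 0.053. The lowest again came from the fit without all 4 libraries (-0.48), whose spread was narrowed by the choice of libraries.

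The 3 complement genes C1qa, C1qb and C1qc, which encode the A, B and C chains of C1q, were the members with the smallest differences. They lie side by side on the minus strand of chromosome 4, C1qb from 136880129 to 136886187 (ENSMUSG00000036905), C1qc from 136889804 to 136893065 (ENSMUSG00000036896) and C1qa from 136895917 to 136898803 (ENSMUSG00000036887). C1qa stood at 21.4, 20.6, 85.0, 103 and 77.8 CPM in deficient libraries 1 to 5 and at 194, 106, 99.8, 96.8 and 342 CPM in WT libraries 1 to 5. C1qb stood at 26.8, 23.0, 102, 118 and 93.1 CPM against 181, 93.4, 88.8, 86.4 and 299 CPM, in the same order of libraries. C1qc stood at 23.1, 18.4, 88.6, 111 and 84.6 CPM against 193, 105, 96.5, 99.9 and 328 CPM. For all 3, deficient libraries 3 to 5 lay among, just above or just below WT 2 to 4, and the groups overlapped.

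C1qa passed the threshold (log2 fold change -1.44, SE 0.51, adjusted p = 0.037), but lost it in 5 of the 10 fits that leave out 1 library and in each of the fits without 2 or 4 libraries; over all alternatives its adjusted p ran from 0.026 to 0.23. C1qc did not pass (-1.33, 95% interval -2.46 to -0.20, adjusted p = 0.054), nor did C1qb (-1.04, 95% interval -2.14 to 0.05, adjusted p = 0.11). Without all 4 libraries C1qb turned to 0.22, and its deficient libraries 3 to 5 held 116% of the mean of WT 2 to 4. The same share was 87.9% for C1qa and 94.4% for C1qc.

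Apoe and Lyz2 varied less among the deficient libraries than the other members did. Apoe encodes apolipoprotein E, a lipid carrier that macrophages secrete and a target of the liver X receptors (ENSMUSG00000002985, chromosome 7, 19696109 to 19699188, minus strand). It stood at 115, 98.5, 147, 212 and 155 CPM in deficient libraries 1 to 5 and at 437, 326, 327, 366 and 1008 CPM in WT libraries 1 to 5. Every deficient library lay well below every WT library, and only WT 5 stood out within WT. The log2 fold change was -1.76 (SE 0.33, adjusted p = 0.0011) and -0.99 without all 4 libraries.

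Lyz2 encodes lysozyme M, an antibacterial enzyme of macrophages, monocytes and neutrophils (ENSMUSG00000069516, chromosome 10, 117277331 to 117282321, minus strand). Its levels were 101, 98.6, 149, 123 and 123 CPM in deficient libraries 1 to 5 and 346, 272, 272, 352 and 696 CPM in WT libraries 1 to 5. The groups did not overlap, and deficient 1 and 2 were only a little below the other deficient libraries. Its log2 fold change of -1.70 (SE 0.24, adjusted p = 1.7e-04) had the smallest standard error of the 10. It was also the one that moved least on leaving libraries out, at -1.18 without all 4. The highest deficient library was 1.51 times the lowest for Lyz2 and 2.15 times for Apoe, against 3.45 (Spic) to 6.07 times (Slc40a1) for the other 8. Lyz2 has a close paralog, Lyz1, which stood at 5.18 ± 1.95 CPM in deficient and 8.28 ± 4.52 CPM in WT libraries. No stretch of 150 bases of the Lyz2 transcript was identical in another gene. Reads with mismatches could still be shared, and their part in the level of Lyz2 was not tested.

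**Figure D2:**
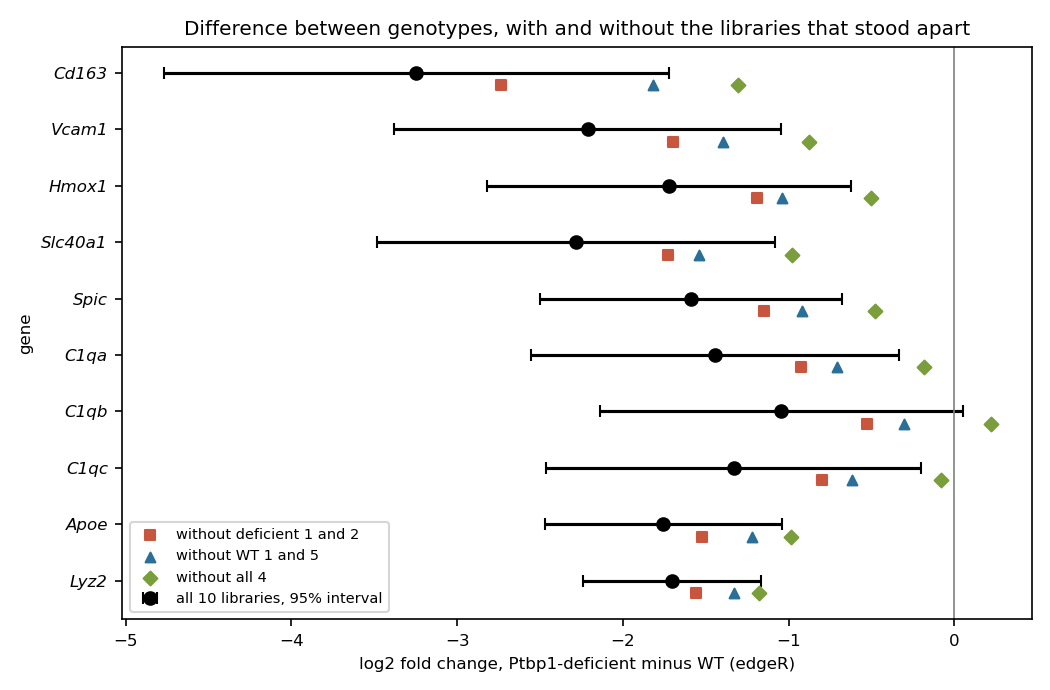
Log2 fold change of each macrophage transcript, deficient minus WT (horizontal axis), from edgeR with all 10 libraries (black points with 95% intervals) and without the libraries that stood apart (coloured points, no intervals drawn). Every point moves towards 0 as libraries are left out, from -3.25 to -1.31 in Cd163 and from -1.70 to -1.18 in Lyz2, and C1qb crosses it to 0.22.

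The number of members called depended on which libraries were in the fit. Without deficient libraries 1 and 2, 7 were called lower and 0 higher, against 20.6% and 19.3% of all genes, with C1qa lost. Without WT libraries 1 and 5, 5 were called lower and 0 higher, against 22.3% and 21.7% of all genes, with Hmox1, Spic and C1qa lost. Without all 4 libraries, 7 were called lower and 1, C1qb, higher, against 24.3% and 23.1% of all genes. Cd163, Vcam1, Slc40a1, Apoe and Lyz2 were called lower in each of these fits. In the 10 fits that leave out 1 library, 7 to 9 members were called lower.

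Levels of different transcripts can be set against each other per length of exon. In WT, the order from the highest was Lyz2 at 294 ± 134 CPM per kb, Apoe at 230.5 ± 136, Hmox1 at 189 ± 98.3, C1qa at 161 ± 101, C1qb at 138 ± 84.8 and C1qc at 85.2 ± 51.7. Vcam1 at 41.2 ± 28.1, Slc40a1 at 28.7 ± 15.8, Spic at 13.2 ± 6.78 and Cd163 at 11.9 ± 12.7 CPM per kb followed (SD, n = 5). Each step between neighbours was smaller than the SD of the higher of them. In the deficient libraries Lyz2 was again highest at 90.3 ± 15.7 and Cd163 lowest at 1.24 ± 0.77 CPM per kb, but C1qb at 66.6 ± 40.7 now stood above C1qa at 59.3 ± 36.8 and Hmox1 at 57.1 ± 36.0.

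Ratios between 2 members within a library do not depend on the scaling of the library. For several members they separated the genotypes although the level of one of the pair did not. Of all 45 pairs of members, 20 had ratios that did not overlap between genotypes. The share among pairs of other genes is not given, so this count cannot be read as particular to these members. The other pairs overlapped, among them Vcam1 with Slc40a1, Hmox1 with Spic and Hmox1 with C1qa. Most ratios below are to C1qb, which had the smallest difference (-1.04), so a member that fell more has a lower ratio to it by arithmetic. Vcam1 divided by C1qb was 1.09, 1.09, 1.06, 1.08 and 1.12 in deficient libraries 1 to 5 and 2.35, 2.34, 2.32, 2.32 and 2.61 in WT libraries 1 to 5. The deficient ratios were nearly alike, although between the lowest and highest of these libraries the level of Vcam1 differed 5.08 times and that of C1qb 5.12 times. Cd163 divided by C1qb ranged from 0.0851 to 0.0970 in the deficient libraries and from 0.248 to 0.617 in WT. Slc40a1 divided by C1qb ranged from 0.584 to 0.786 against 1.39 to 2.28, and Hmox1 divided by C1qb from 1.23 to 1.54 against 1.86 to 2.63.

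Ratios among the chains of C1q lay apart as well. C1qa divided by C1qb was 0.797, 0.897, 0.836, 0.879 and 0.835 in deficient libraries 1 to 5 and 1.07, 1.14, 1.12, 1.12 and 1.15 in WT libraries 1 to 5. C1qc divided by C1qb was 0.801 to 0.946 in the deficient libraries and 1.07 to 1.16 in WT. Neither of these 2 ratios overlapped between genotypes, whereas C1qa divided by C1qc overlapped, at 0.919 to 1.12 and 0.969 to 1.04. The ratios of Spic, Apoe and Lyz2 to C1qb overlapped between genotypes too. Those of Apoe and Lyz2 differed within the deficient group, at 4.31 and 4.29 for Apoe and 3.76 and 4.29 for Lyz2 in deficient 1 and 2, but 1.45 to 1.80 and 1.04 to 1.47 in deficient 3 to 5. These ratios were chosen after the levels were seen and are given as descriptions with no test.

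**Figure D3:**
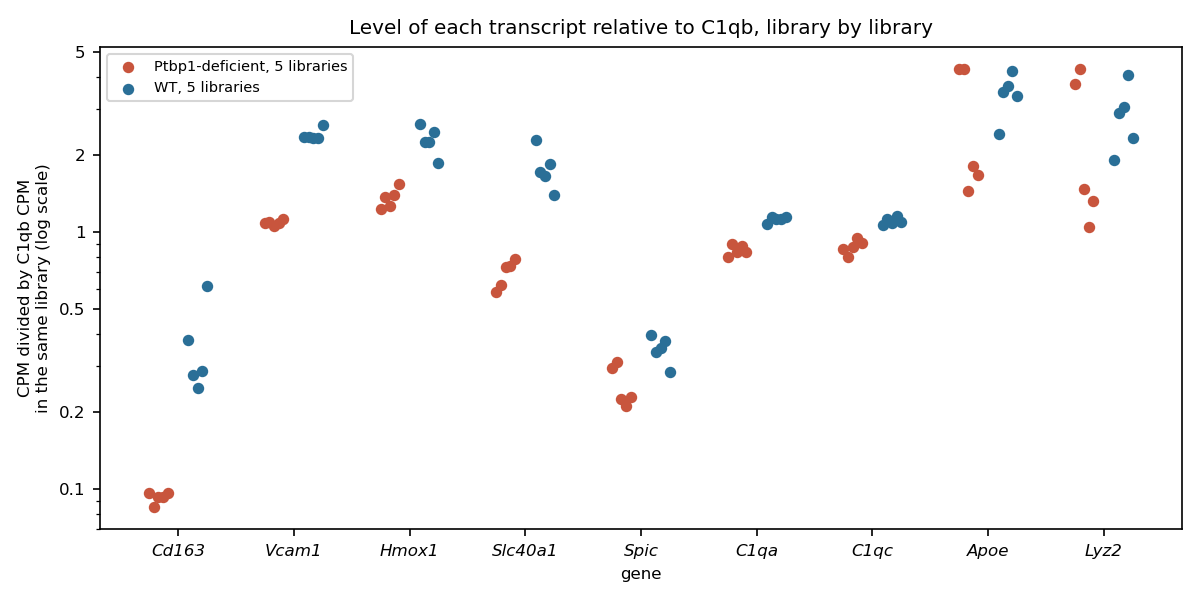
Level of each of the other 9 transcripts divided by that of C1qb in the same library (vertical axis, ratio of CPM, log scale) in the 5 deficient (red) and 5 WT (blue) libraries, drawn in order of library number. The groups lie apart for Cd163, Vcam1, Hmox1, Slc40a1, C1qa and C1qc and overlap for Spic, Apoe and Lyz2; the height of a ratio also depends on gene length.

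Other genes followed the same course over the libraries. Likeness was measured as the root mean square difference, over the 10 libraries, between a gene's centred log2 CPM and the median of the members' centred log2 CPM, for 9624 protein-coding genes with a mean of at least 5 CPM. The closest was Pld3, which encodes a lysosomal exonuclease, at 0.063, against a median of 1.24 over all candidates. It stood at 22.3 ± 12.8 CPM in deficient and 76.3 ± 43.4 CPM in WT libraries. Next came Stab2, the scavenger and hyaluronan receptor stabilin 2, at 0.11, and Selenop, the secreted selenium carrier, at 0.13. Itgb5, an integrin chain, stood at 0.13 as well, and Axl, a receptor for dying cells, at 0.16. Crip2 at 0.15, Tgm1 at 0.16 and Epb41l3 at 0.17 were the remaining 3 of the 8 closest. Axl and Selenop are also in the wider macrophage list described next, and Stab2 is in the list of stromal and endothelial markers. All 8 were called lower, with log2 fold changes of -1.59 to -1.84, which their choice by likeness to the members fixed. Selenop, Itgb5 and Axl lost the call without WT 1 and 5 (adjusted p = 0.072, 0.062 and 0.086), and Axl also without deficient 1 and 2 (adjusted p = 0.054).

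**Figure D4:**
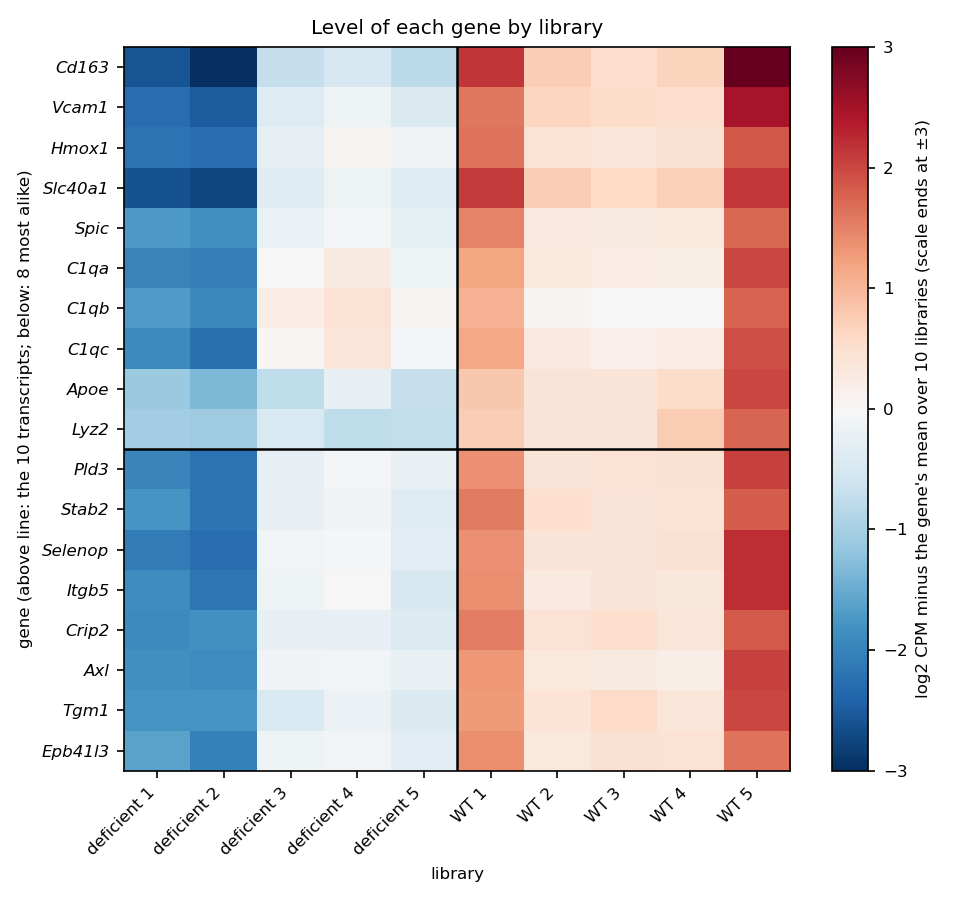
Log2 CPM minus the gene's mean over the 10 libraries (colour) for the 10 macrophage transcripts (above the line) and the 8 genes closest to them (below), in the 5 deficient and 5 WT libraries (columns). Deficient 1 and 2 are the deepest blue and WT 5 and WT 1 the deepest red in nearly every row, with the other libraries between; Apoe and Lyz2 show the mildest contrast between deficient 1 and 2 and deficient 3 to 5.

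A wider list of tissue macrophage genes moved less evenly. Of its 32 genes 27 were in the table, where Clec4f, Vsig4, Folr2, Lyve1 and Treml4 were not found; 17 were called lower and 1 higher, against 23.1% and 21.9% of all genes tested, with a median log2 fold change of -1.13. Csf1r, the receptor for the growth factor of macrophages, stood at 149 ± 41.0 CPM in deficient and 489.6 ± 206 CPM in WT libraries and was lower (log2 fold change -1.72, adjusted p = 3.5e-04). Mertk, which engages dying cells, had 8.35 ± 5.44 against 39.6 ± 24.3 CPM (-2.24, adjusted p = 0.0058). The mannose receptor gene Mrc1 had 21.8 ± 15.6 against 125 ± 90.4 CPM (-2.51, adjusted p = 0.0078). By the rule of smallest adjusted p, Cd209b (-2.79), Id3 (-2.30) and Sirpa (-0.59) were also lower, and Mpeg1, which encodes the pore-forming protein perforin-2, was higher (1219 ± 109 in WT to 2247 ± 284 CPM, log2 fold change 0.88).

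Other macrophage genes did not pass with genotype as the only term and all 10 libraries. Siglec1 (sialoadhesin) stood at 10.7 ± 5.62 CPM in deficient and 17.9 ± 16.7 CPM in WT libraries (log2 fold change -0.74, adjusted p = 0.28), and Cd5l at 38.7 ± 28.8 and 71.7 ± 43.2 CPM (-0.88, adjusted p = 0.25). Timd4, a receptor for phosphatidylserine, had a value of -1.13 (adjusted p = 0.060), but passed without deficient library 3 (-1.34, adjusted p = 0.048) and with the replicate number as a block (-1.28, adjusted p = 0.031). Values were -0.13 (adjusted p = 0.83) for the Fc receptor gene Fcgr1 and 0.20 (adjusted p = 0.56) for Fcgr4. These 5 and Csf1r, Mertk and Mrc1 were picked after their values were seen. At an adjusted p under 0.01 the list had 11 genes lower, and on FPKM 11 of 18. The shares of all genes at these settings are not given. Without WT 1 and 5 the list had 11 genes lower and 3 higher, against 22.3% and 21.7% of all genes. Without all 4 libraries it had 15 lower and 9 higher, against 24.3% and 23.1% of all genes. In that last fit Siglec1, Cd5l and Fcgr1 stood at 0.71, 0.42 and 1.01.

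Genes around the members' pathways were mixed. Of 26 heme and iron genes tested beside Hmox1 and Slc40a1, 10 were called lower and 2 higher, against 23.1% and 21.9% of all genes tested, with a median log2 fold change of -0.15. Lrp1, a receptor for heme bound to hemopexin, was lower at 81.3 ± 21.2 against 301 ± 127 CPM in WT (-1.88, adjusted p = 1.5e-04). Trf, which encodes transferrin, was lower at 12.1 ± 4.55 against 47.0 ± 19.8 CPM (-1.95, adjusted p = 4.1e-04). Mafg (-0.36) and Gclc (-0.68), the latter for the rate-limiting enzyme of glutathione synthesis, were called lower with smaller differences. Without all 4 libraries, 12 of these genes were lower and 7 higher, against 24.3% and 23.1% of all genes.

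Of 20 complement genes outside C1q, 10 were called lower and 2 higher, against the same 23.1% and 21.9% of all genes. At an adjusted p under 0.01, 6 were lower, and on the deposited FPKM values, which list fewer of these genes, 4 of 8 were lower. C5ar2 (-2.54) and the complement receptor gene Cr2 (-2.12), which B cells express and which is in the B cell list too, were among those lower. C1qbp, whose product sits mostly in mitochondria, was higher (0.39). Without deficient libraries 1 and 2 the counts were 6 lower and 4 higher, against 20.6% and 19.3% of all genes. The share higher was then near that of all genes. Without deficient library 2 alone, 4 were also higher. The shares of all genes are not given for that fit, for FPKM or for an adjusted p under 0.01.

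Among 25 genes of lipid handling and targets of the liver X receptors, the pathway to which Apoe belongs, 6 were called lower and 9 higher, against 23.1% and 21.9% of all genes, so the share lower was near that of all genes. On the deposited FPKM values 3 of 19 were higher and 4 to 5 lower, and at an adjusted p under 0.01, 5 were higher. The shares of all genes at those settings are not given, so these counts cannot be read against them. Fabp4, a fatty acid carrier, was lower at 1.10 ± 0.59 against 6.45 ± 1.81 CPM in WT (-2.54, adjusted p = 1.5e-04), and Lrp1, given above, is also in this list. Pltp, the phospholipid transfer protein gene and a liver X receptor target like Apoe, was higher (37.1 ± 8.41 in WT to 69.1 ± 6.74 CPM, 0.90, adjusted p = 2.4e-04), as was the fatty acid receptor gene Cd36 (0.70, adjusted p = 5.4e-04), although Cd36 did not pass on the deposited FPKM values.

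Summed transcripts of other cells also varied between libraries, and their calls are read against 23.1% lower and 21.9% higher over all genes. Of 15 B cell markers 10 were called lower and 0 higher (0 also at an unadjusted p under 0.05), and their sum was 759 to 835 CPM in the deficient libraries, 642 to 749 CPM in WT 2 to 4, 1047 CPM in WT 1 and 2557 CPM in WT 5. Erythroid genes, of which 2 of 16 were lower and 0 higher (0 also at an unadjusted p under 0.05), summed to 41.0 to 45.4 CPM in deficient 1 and 2, 71.4 to 110.2 CPM in deficient 3 to 5, 52.3 to 58.6 CPM in WT 2 to 4, 84.0 CPM in WT 1 and 143 CPM in WT 5. So the erythroid sum, like the macrophage transcripts, was lowest in deficient 1 and 2 and highest in WT 5.

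Monocyte and neutrophil genes, with 7 of 29 lower, near the share of all genes, and 2 higher, summed to 1781 to 2177 CPM in the deficient libraries, 2065 to 2197 CPM in WT 2 to 4, 1372 CPM in WT 1 and 4419 CPM in WT 5. Plasmacytoid dendritic cell markers, with 7 of 12 lower and 2 higher, reached 723 CPM in WT 5 and 459 CPM in WT 1. Their sum was 373 to 379 CPM in WT 2 to 4 and 384 to 424 CPM in the deficient libraries. NK cell markers went the other way, with 1 of 16 lower and 9 higher. T cell markers had 2 of 14 lower and 0 higher (0 also at an unadjusted p under 0.05), dendritic cell markers 7 of 24 lower and 9 higher, and stromal and endothelial markers 4 of 6 lower and 1 higher, most of that list not being in the table. None of these sums put the libraries in the order of the macrophage sum throughout, and their part in the macrophage result was not tested.

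**Figure D5:**
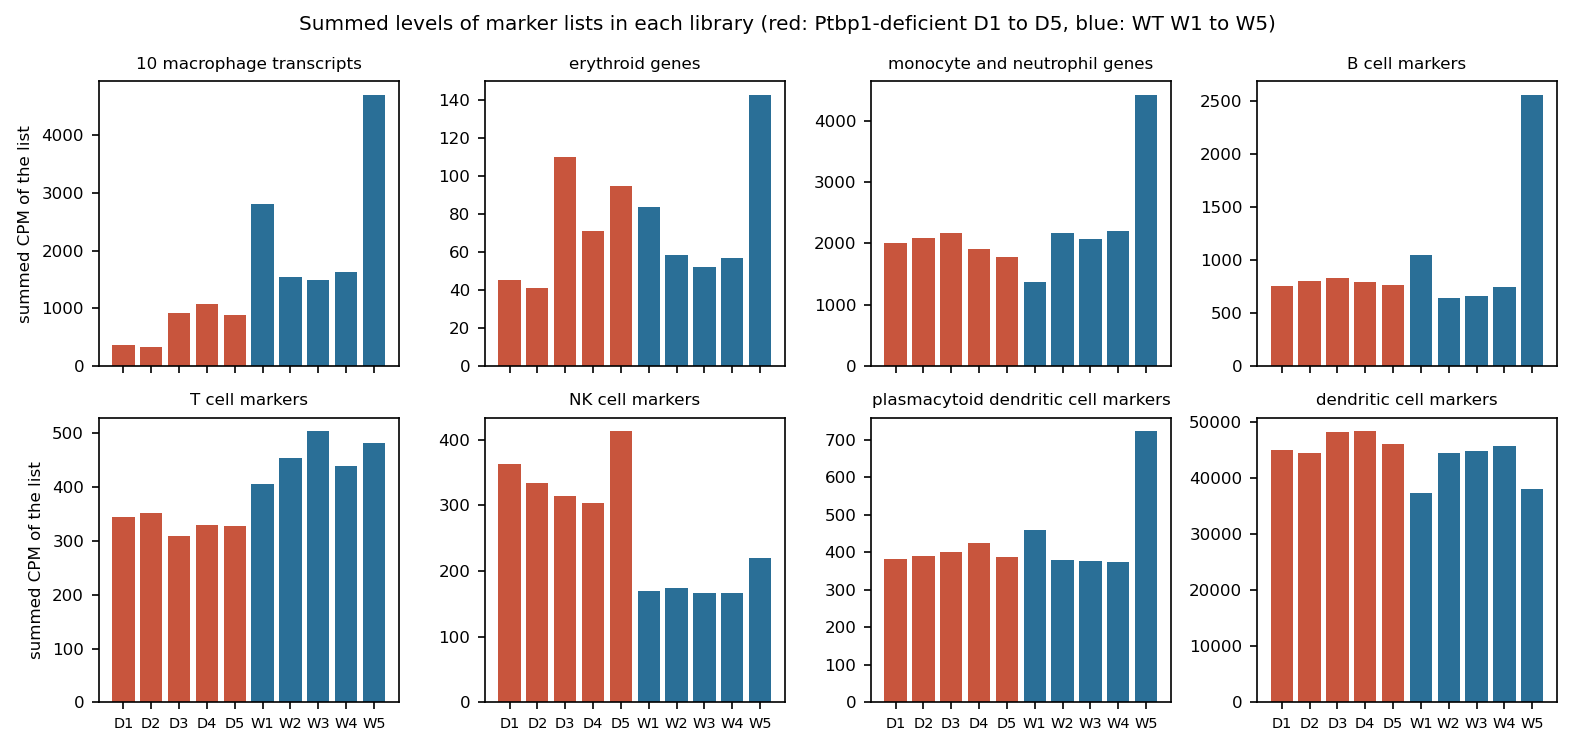
Summed CPM (vertical axis, from 0, a different range in each panel) of the 10 macrophage transcripts and of 7 lists of marker genes in each library (D1 to D5 deficient, red; W1 to W5 WT, blue). The macrophage sum rises from 339 CPM in D2 to 4691 CPM in W5; W5 is also the highest library for B cell, erythroid, monocyte and neutrophil, and plasmacytoid markers, while dendritic cell markers are lowest in W1 and W5.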

How the data were processed

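Poly(A) RNA was sequenced as paired 150 bp reads on an Illumina HiSeq, per the labels' protocols. Per the submitters' processing notes, HISAT2, StringTie and DESeq2 were used, without versions. The build named there is the human GRCh38, although the deposited identifiers are mouse Ensembl ones. The counting tool and its use of strand were not given in the sources used here. The authors deposited unnormalized counts per gene, in which every gene row has at least 2 counts in every library. Reads outside genes (17.2% to 22.2%), ambiguous and not unique stayed out of library sizes. The deposited FPKM table has 11978 rows; Cd163 is not listed in it, and its values served as an alternative only.

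GENCODE M21 (GRCm38) gave symbols for 19049 of 19178 identifiers. edgeR 4.0.16 (filterByExpr, which removed 930 genes, TMM, quasi-likelihood test, genotype as the only term, R 4.3.3) compared the 5 deficient with the 5 WT libraries over 18248 genes with Benjamini-Hochberg adjustment, and was tested on simulated data. CPM per kb divides CPM by the union of a gene's exons. Promoter windows came from RefSeq (GRCm38.p6).

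The members and lists were chosen with earlier results of these data known. The named genes are the members, from each list up to 4 called genes, those of smallest adjusted p, and the 8 genes most like the members; for lists of cell types only counts and sums are told. Of these, 1 gene that this rule gave is not reported here. Alternatives were upper-quartile or RLE normalization, DESeq2 1.42.0, no filter, at least 1 CPM in 5 libraries, limma 3.58.1 on log2(FPKM + 1), log2(FPKM + 0.1) and genes of at least 5 FPKM, an adjusted p under 0.01, the replicate number as a block, and leaving out each library. Fits without 2 or 4 libraries were added after seeing the data.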

Additional observations from a re-analysis of the deposited data

Results flagged for a closer look

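WT library 5 lay far above the other 4 WT libraries in 3 of the 20 groups of member values screened with Dixon's test for a single outlying value (95% critical value 0.71 for 5 libraries). These were Cd163 at 184 CPM, Apoe at 1008 CPM and Lyz2 at 696 CPM. In the other 7 members WT 5 was also the highest library, but its gap to WT 1 did not pass.

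Among the 32 other named genes, 6 of 64 groups held an outlying library. WT 5 stood apart for Mafg at 74.1 CPM, Gclc at 151 CPM, Cr2 at 49.97 CPM, Siglec1 at 47.2 CPM and Timd4 at 18.1 CPM. WT 1 stood apart for Fcgr4, at 58.9 CPM. About 1 in 20 groups is expected to be marked by chance, and the genes are not independent, since 8 of these 9 marks fall on the same library.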

How the results depend on the processing

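The number of members called lower was 8, and 7 to 9 when 1 library was left out. It was 9 with DESeq2, with upper-quartile normalization and with the replicate number as a block, where C1qc joined, and 6 at an adjusted p under 0.01, where Hmox1 and C1qa were lost. Without WT replicates 1 and 5 it fell to 5, and without all 4 libraries that stood apart 1 member was higher. RLE normalization and both filters on low counts left all 10 on the same side of the threshold. On log2 FPKM, where Cd163 is not listed, 8 of 9 were lower, C1qc among them. Shares of all genes called lower are given above for the main fit and the fits without 2 or 4 libraries. They are not given for the other settings. The direction turned for C1qb (0.22), Cd5l (0.42), Siglec1 (0.71) and Fcgr1 (1.01) without all 4 libraries. It also turned for Siglec1 (0.29) and Fcgr1 (0.65) without WT 1 and 5, and for Fcgr1 (0.22) without deficient 1 and 2. Leaving out 1 library gave -0.34 to 0.37 for Fcgr1 and -1.03 to 0.021 for Siglec1. The cause was not tested beyond fewer libraries. No pairing by replicate number was seen, though so few libraries cannot exclude one and the labels state none. Deviations of same-numbered libraries correlated at -0.10 to 0.11, and only deficient 5 correlated best with the WT library of its own number. The block moved calls over all genes from 8214 to 7538. Each member had at least 125 counts in every library.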
